A study of Mus musculus with 9 samples.

Results

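The genes described here are 39 of the 18875 genes in the deposited table, chosen by their symbols because their products copy DNA or prepare a cell to do so. They are the origin licensing genes Orc1, Orc6, Cdc6 and Cdt1, the helicase genes Mcm2 to Mcm7, Mcm10, Cdc45 and Gins1 to Gins4, the polymerase and primase genes Pola1, Pola2, Prim1, Pold1 and Pole, and the sliding clamp, clamp loader and lagging strand genes Pcna, Rfc1 to Rfc5, Rpa2, Fen1 and Lig1. The nucleotide synthesis genes Rrm1, Rrm2, Tyms, Tk1 and Dut and the genes Ccne1, Ccne2, E2f1 and Uhrf1, which act at entry into S phase or in copying DNA methylation, complete the set. All 39 were in the table. Before a cell divides, the origin recognition complex, Cdc6 and Cdt1 load the Mcm2 to Mcm7 ring onto DNA, and Cdc45 and the GINS complex then join the ring to make the active helicase. Primase and the polymerases copy the opened strands, the clamp loader places the Pcna ring that tethers the polymerases, and Fen1 and Lig1 finish the lagging strand. Cyclin E and the E2F transcription factors switch many of these genes on at the passage from G1 to S phase. In adult lung most cells are at rest, and replication genes are expressed mainly by the cells that divide to renew the epithelium, the endothelium or the immune cells.

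Expression was measured by sequencing mRNA in 9 libraries, each made from whole lung of wild-type mice of the inbred BALB/c strain. The short-term group (3 libraries) had received PM2.5, fine airborne particulate matter, as 1 intranasal instillation of 10 mg/kg, and the long-term group (3 libraries) had received 6 such instillations, 1 every 3 days. The 3 PBS libraries are labelled as a long-term exposure to phosphate-buffered saline, so the short-term group had no control of its own duration, and the sources used here do not give the time between the last instillation and collection. Values are TPM, a gene's share of all transcripts after correction for transcript length. Differences were taken between log2(TPM + 1) values, so for genes near 1 TPM they come out smaller than the change in TPM. Whether the 3 samples in each group were separate animals is not stated, and p-values therefore describe only the spread among these samples. In whole tissue, more replicating cells and more of these transcripts in each cell cannot be told apart.

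Promoter sequence is shown first because many of these genes share a short motif there. RefSeq promoter windows on GRCm38.p6, from 250 bases before to 50 bases after the transcription start, were matched for 32 of the 39 genes. Both strands were searched for the E2F letters TTTCCCGC, TTTCGCGC, TTTGCCGC and TTTGGCGC. The letters were present in 13 of the 32 genes (40.6%), against 3.85% of the 14874 genes and 3.24% of the 18579 windows searched in the same way. The 13 genes were Cdc6, Cdt1, Gins3, Lig1, Mcm3, Mcm5, Mcm6, Mcm7, Orc1, Pola1, Pold1, Rfc3 and Uhrf1. The lines that follow give 5 of these windows, 5′ to 3′ on the strand of the gene, with the E2F letters on either strand in capitals. They were chosen to set genes that passed the short-term test (Mcm5, Mcm6, Uhrf1, Cdc6) beside Pola1, which passed no test as deposited. The Mcm5 stretch is chr8:75109330-75109389 on the plus strand and the Mcm6 stretch chr1:128359706-128359955 on the minus strand. The Uhrf1 stretch is chr17:56304063-56304312 on the plus strand, the Cdc6 stretch chr11:98907987-98908046 on the plus strand and the Pola1 stretch chrX:93632260-93632319 on the minus strand. In GENCODE vM21 none of the 5 stretches overlaps an exon, and those of Uhrf1 and Cdc6 lie in an intron of a longer transcript of the same gene.
Mcm5: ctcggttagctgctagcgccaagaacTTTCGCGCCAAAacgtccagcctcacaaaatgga
Mcm6: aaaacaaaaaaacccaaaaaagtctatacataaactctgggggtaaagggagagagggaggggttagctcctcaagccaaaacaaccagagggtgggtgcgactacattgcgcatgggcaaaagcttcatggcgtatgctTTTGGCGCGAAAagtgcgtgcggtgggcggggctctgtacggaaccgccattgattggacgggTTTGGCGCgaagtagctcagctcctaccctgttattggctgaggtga
Uhrf1: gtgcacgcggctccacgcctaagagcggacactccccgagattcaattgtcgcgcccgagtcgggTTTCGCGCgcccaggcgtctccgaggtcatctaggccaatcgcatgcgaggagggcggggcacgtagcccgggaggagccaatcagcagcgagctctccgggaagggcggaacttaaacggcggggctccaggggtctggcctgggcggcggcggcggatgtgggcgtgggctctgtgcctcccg
Cdc6: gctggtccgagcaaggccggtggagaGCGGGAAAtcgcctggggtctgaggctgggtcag
Pola1: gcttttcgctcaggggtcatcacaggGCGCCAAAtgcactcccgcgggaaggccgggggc

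In Mcm5 the capitals are TTTCGCGC and, on the other strand, TTTGGCGC, which overlap in one run. Mcm6 has the same pair of matches read in the opposite direction and a further TTTGGCGC nearer its start. With the first T of each motif left out, 20 of the 32 genes had a match (62.5%), against 16% of all genes, and the added genes included Rrm1, Rrm2, Rfc1, Rfc4, Rpa2, Prim1 and Fen1. CCAAT and CHR letters were searched on both strands too. The CCAAT letters, which also occur in many other promoters, were in 19 of the 32 genes and in 42.4% of all genes. The CHR letters TTTGAA and TTCGAA, known from promoters of genes that peak in G2 phase and mitosis, were in 6 of the 32 genes and in 17.8% of all genes. By contrast, of 15 matched mitosis genes (listed further on), 11 held the CHR letters, 13 CCAAT and 1 the E2F letters. E2F letters were in 9 of the 22 matched genes that passed the test as higher after the short-term dose. They were in 4 of the 10 other matched genes, and these 4 include Orc1, which was not tested. This split uses the values as deposited. After the length and GC correction described further on, every tested gene of the 10 except Rfc1 was higher after the short-term dose too. A match is a description of the letters, not evidence of binding.

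**Figure D1:**
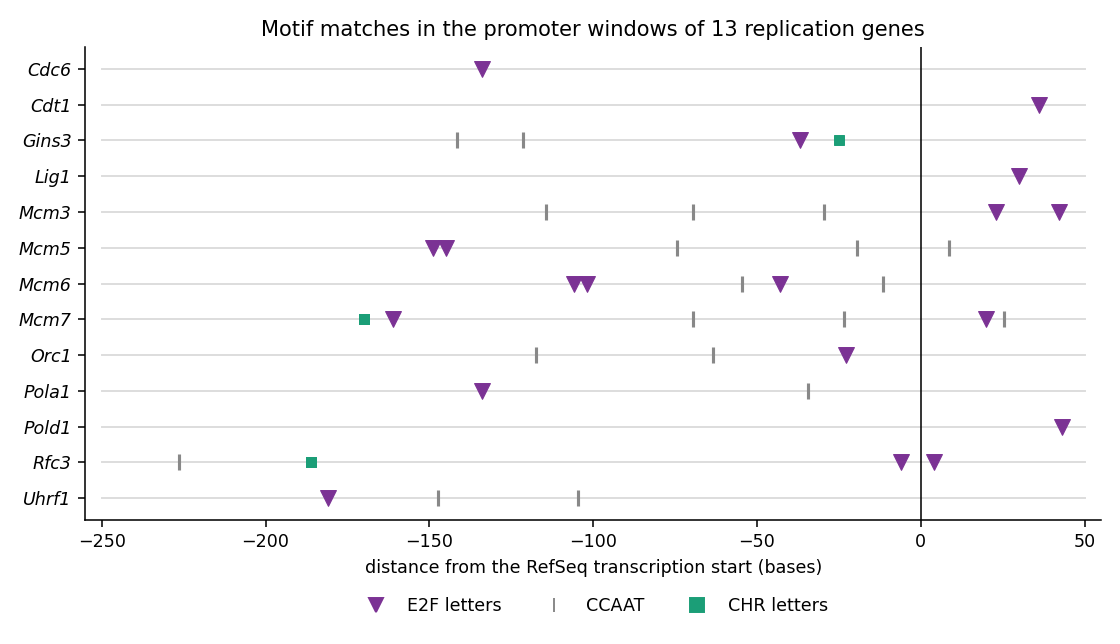
Positions of motif matches in the promoter windows of the 13 replication genes with E2F letters. The x axis is the distance in bases from the RefSeq transcription start, each line is 1 gene, triangles are E2F letters, ticks are CCAAT and squares are CHR letters. Mcm5 and Mcm6 show overlapping pairs of E2F letters upstream of the start, and those of Cdt1, Lig1, Mcm3 and Pold1 lie just after it.

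Of the 39 genes, 38 were tested with limma because at least 3 libraries held them at 1 TPM or above. Orc1, the largest subunit of the origin recognition complex, stayed below 1 TPM in all libraries except short-term replicate 2 (1.27 TPM) and was not tested. Cdc6, Mcm10, Pole and Ccne2 lay below 1 TPM in every PBS library and entered the test only through exposed libraries. The calls of Cdc6, Mcm10 and Pole were kept when no filter was used. Of the other calls against PBS, those of Prim1 and Rrm2 short-term and of Lig1 long-term were lost in that setting. After the short-term dose 26 of the 38 genes rose, among them Tk1, Uhrf1, Gins2, Mcm5, Gins1 and Rfc4, and Rfc1 fell, against 11.7% of all 13991 tested genes higher and 40.3% lower. After the long-term doses 12 rose and none fell, against 9.51% of all tested genes higher and 1.72% lower. These were Cdc6, Cdt1, Mcm5, Mcm10, Gins2, Rfc4, Rfc5, Lig1, Rrm2, Tk1, Ccne1 and Uhrf1, and all 12 were also higher after the short-term dose. Both comparisons use the same PBS libraries, so the lists are not independent. The median difference from PBS over the 38 genes was 0.76 after the short-term dose and 0.45 after the long-term doses, beside medians of −0.34 and 0.03 over all tested genes. In 29 genes every long-term library lay above every PBS library, which held for 25.9% of all tested genes, and in 29 genes every short-term library did, which held for 14.5%. On the values as deposited, no test in any comparison was passed by 11 genes, namely Orc6, Mcm4, Gins3, Gins4, Pola1, Pola2, Pold1, Pcna, Rrm1, Dut and Ccne2. After the length and GC correction described further on, all of these except Gins4 were higher after the short-term dose.

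The long-term calls varied with the libraries in the fit. The calls of Gins2, Tk1, Ccne1 and Uhrf1 held in all 19 alternatives or in all 18 in which the gene was tested. Each of the other 8 kept its direction but was lost when PBS replicate 1, PBS replicate 2 or long-term replicate 1 was left out. Without one of these libraries 4, 5 and 4 of the 38 genes were higher after the long-term doses, without PBS replicate 3 it was 7, without long-term replicate 2 it was 5, and without short-term replicate 1 it was 19. Counts over all 13991 tested genes moved as well. There the number higher, 1330, was 794, 835 and 822, then 992, 887 and 2152, in the same order. The fit took 1 estimate of the spread from all 3 groups. With the PBS and long-term libraries alone, 22 of the 38 genes were higher after the long-term doses, beside 2500 of all tested genes. Of the 27 short-term calls 21 held in every alternative. The exceptions were Mcm6 (not called without PBS replicate 3), Pole (without PBS replicate 1), Prim1, E2f1, Rrm2 and Rfc1.

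**Figure D2:**
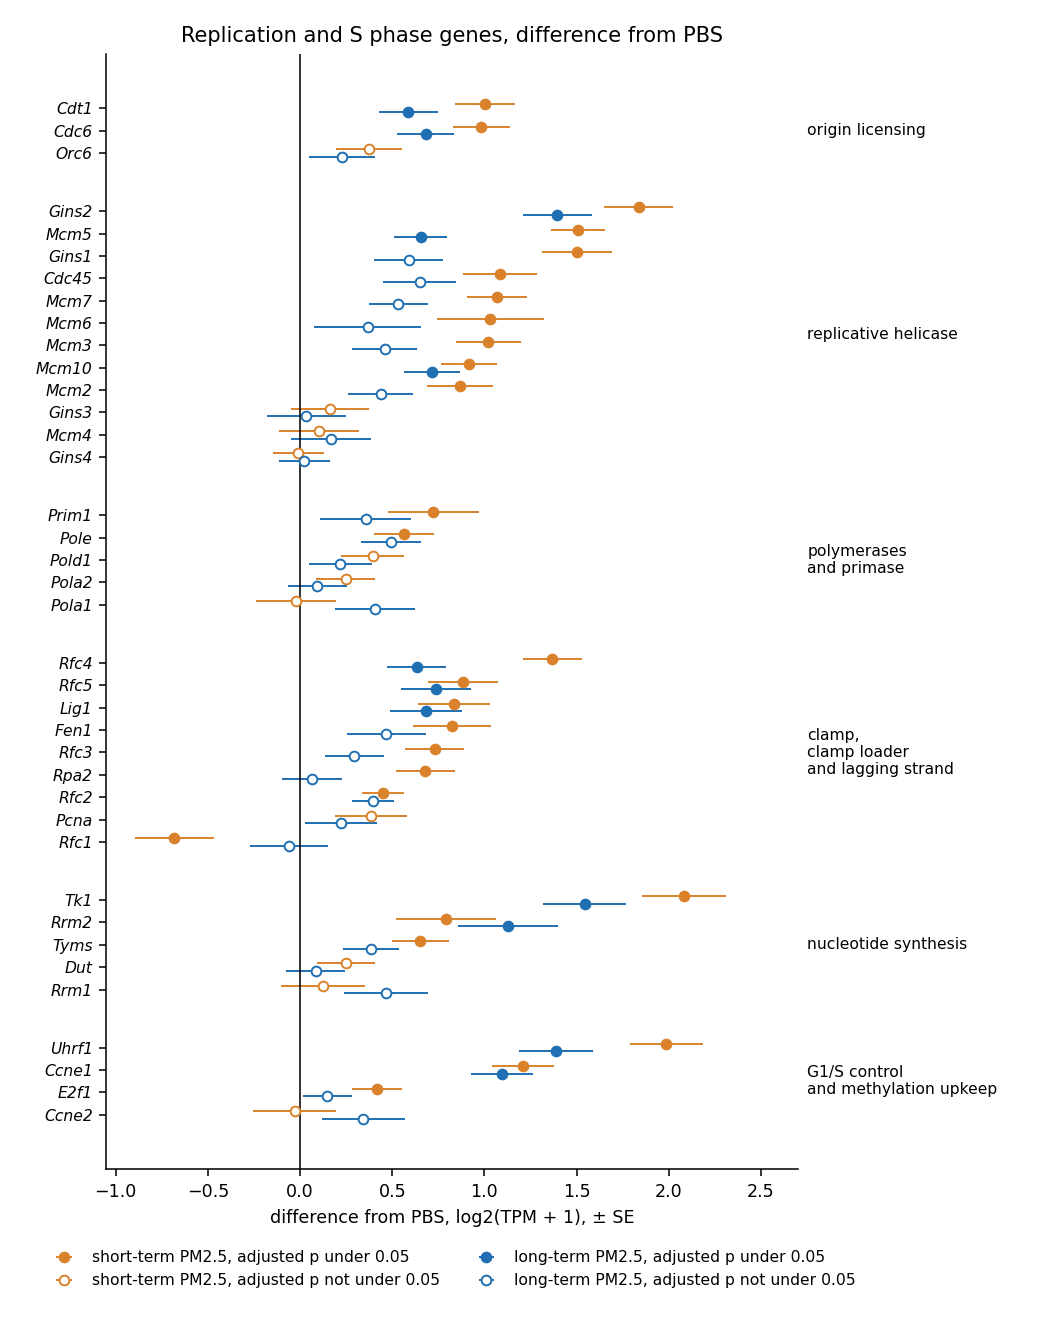
Difference of the 38 tested replication and S phase genes from PBS on the log2(TPM + 1) scale, with the standard error from limma, grouped by role. Orange is short-term PM2.5, blue is long-term PM2.5, and filled points have an adjusted p under 0.05. Most genes lie to the right of 0, Gins4, Gins3 and Mcm4 lie near 0, and Rfc1 lies to the left after the short-term dose.

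Of the 3 tested origin licensing genes, Cdc6 and Cdt1 rose after both exposures. Cdc6, the ATPase that brings the helicase to the origin, stood at 0.54, 0.35 and 0.52 TPM in the PBS libraries, 1.51, 2.45 and 1.82 TPM in the short-term libraries and 1.68, 1.32 and 1.10 TPM in the long-term libraries. Both exposed groups lay above PBS in all libraries and overlapped each other. The difference from PBS was 0.98 ± 0.15 (SE), adjusted p = 0.000987 by limma for the short-term dose and 0.68 ± 0.15 (SE), adjusted p = 0.0166 for the long-term doses. Cdt1, its partner in loading and a protein that geminin holds back, was at 9.81, 8.27 and 11.6 TPM with PBS, 21.8, 21.8 and 18.5 TPM after 1 dose and 17.2, 15.5 and 13.2 TPM after 6. The 3 groups did not overlap, with the short-term libraries highest. Cdt1 rose by 1.00 (limma adjusted p = 0.00112) and 0.59 (adjusted p = 0.0419), and the difference of −0.41 from the short-term to the long-term group missed the threshold (adjusted p = 0.0538). Orc6, a small subunit of the origin recognition complex, had a mean of 8.59 ± 0.67 TPM (SD, n = 3) with PBS, 11.6 ± 3.08 TPM short-term and 10.2 ± 0.81 TPM long-term. Both exposed groups lay above PBS without passing the test. Orc1 averaged 0.43 ± 0.18, 0.86 ± 0.37 and 0.49 ± 0.17 TPM in the same order, with overlapping libraries.

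Of the 12 helicase genes 9 rose after the short-term dose, with a median difference of 1.03, and after the long-term doses 3 rose (Gins2, Mcm10 and Mcm5), with a median of 0.50. Gins2, a subunit of the GINS complex, measured 3.66, 3.17 and 3.59 TPM with PBS, 15.4, 17.6 and 12.3 TPM after the short-term dose and 13.5, 10.5 and 8.72 TPM after the long-term doses. Every exposed library exceeded every PBS library by more than the whole PBS range. The differences were 1.84 ± 0.19 (SE), adjusted p = 0.000129, and 1.39 ± 0.19 (SE), adjusted p = 0.00106, by limma, which correspond to ratios of mean TPM of 4.35 and 3.14. In GENCODE vM21 67.3% of the exonic bases of Gins2 are also covered by Gse1 on the other strand, and the sources used here do not say that reads were counted by strand. Gse1 itself was at 30.3 to 33.9 TPM with PBS, 14.6 to 20.2 TPM short-term and 28.9 to 30.0 TPM long-term, and its part in the Gins2 values was not tested. Mcm10, which helps to start the loaded helicase, was scarce at 0.46, 0.40 and 0.62 TPM with PBS, 1.5, 2.08 and 1.88 TPM short-term and 1.93, 1.34 and 1.13 TPM long-term. All 6 exposed libraries lay above 1 TPM and no PBS library did, so Mcm10 met the condition for testing only through the exposed groups. It rose by 0.91 (limma adjusted p = 0.00128) and 0.71 (adjusted p = 0.0123).

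The 6 subunits of the Mcm2 to Mcm7 ring had PBS means of 10.8, 11.8, 10.9, 7.29, 8.43 and 14.9 TPM in that order, that is, per transcript length, within the range from Mcm5 to Mcm7. Mcm5 was 7.14, 7.25 and 7.49 TPM with PBS, 23.3, 24.8 and 19.9 TPM short-term and 13.8, 11.5 and 11.0 TPM long-term. The 3 groups were fully separated, and the PBS libraries had an SD of 0.18 TPM. Mcm5 rose after both exposures (1.51 ± 0.14 (SE), adjusted p = 8.98e-05, and 0.65 ± 0.14 (SE), adjusted p = 0.015, by limma) and was lower after the long-term than after the short-term exposure (−0.85 ± 0.14 (SE), adjusted p = 0.00171). Mcm2, Mcm3, Mcm6 and Mcm7 rose after the short-term dose by 0.87 to 1.07 and did not pass the long-term test, in which their differences were 0.37 to 0.53. Mcm6 was uneven in PBS, at 10.8, 9.48 and 5.0 TPM, and its short-term call was lost without PBS replicate 3, the lowest of them (limma adjusted p = 0.0539). Mcm4 passed no test, at 11.2, 11.3 and 10.4 TPM with PBS, 8.35, 17.1 and 11.5 TPM short-term and 13.5, 12.4 and 11.4 TPM long-term. Its short-term libraries lay on both sides of PBS, with replicate 1 below all PBS libraries and replicate 2 above all others. Mcm7 shares 12.6% of its exonic bases with other genes, among them Ap4m1 and Cops6 on the other strand.

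The remaining helicase cofactors differed from one another. Gins1, a further GINS subunit, was 1.67, 1.41 and 1.91 TPM with PBS, 6.53, 7.82 and 5.39 TPM short-term and 3.98, 2.84 and 2.33 TPM long-term. The 3 groups did not overlap. Gins1 rose after the short-term dose (1.5 ± 0.19 (SE), adjusted p = 0.000349, by limma), missed the threshold after the long-term doses (0.59, adjusted p = 0.0771), and was lower long-term than short-term (−0.91, adjusted p = 0.00423). Gins4 was the most abundant of the 4 GINS genes, at 29.0, 26.6 and 26.3 TPM with PBS, 22.5, 28.6 and 31.0 TPM short-term and 28.6, 28.8 and 26.0 TPM long-term. Its groups overlapped throughout, with differences of −0.01 ± 0.14 and 0.02 ± 0.14 (SE). Gins3 was at 2.07, 2.36 and 1.13 TPM with PBS, 1.76, 2.83 and 1.91 TPM short-term and 2.52, 1.6 and 1.58 TPM long-term, also with full overlap and with differences of 0.16 and 0.03. The GINS proteins form one complex, and their transcripts with PBS ranged from a mean of 1.66 TPM for Gins1 to 27.3 TPM for Gins4. Cdc45, which links the GINS complex to the ring, rose after the short-term dose by 1.08 (limma adjusted p = 0.00203). Its long-term difference of 0.65 missed the threshold (limma adjusted p = 0.066), although all long-term libraries lay above PBS.

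**Figure D3:**
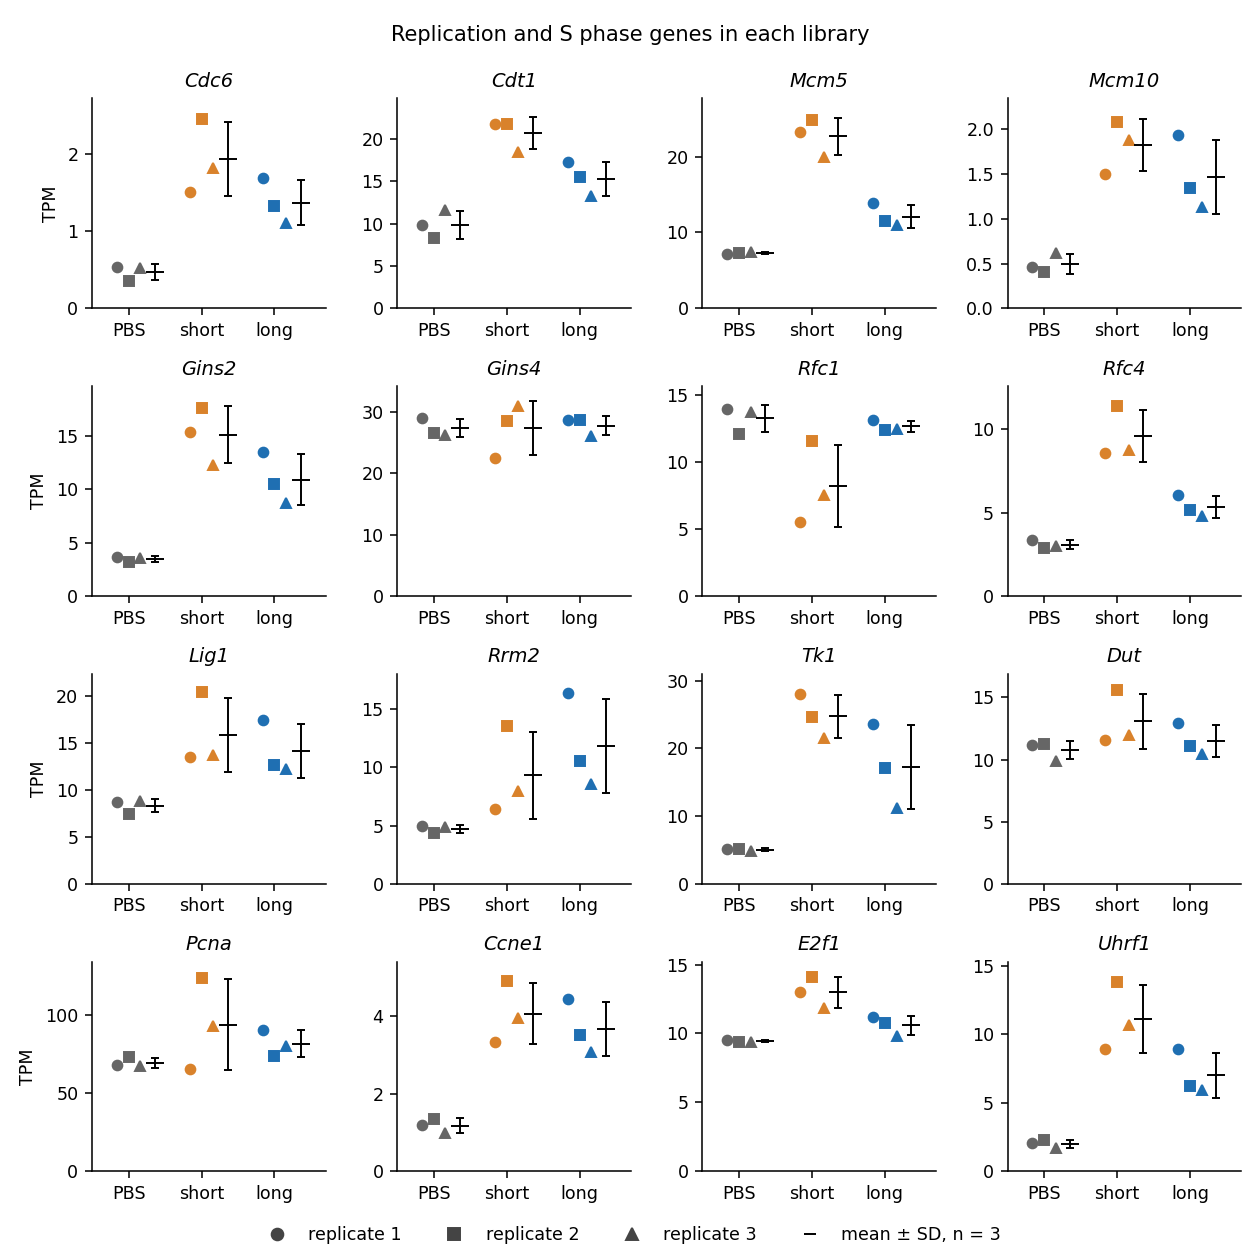
TPM of 16 replication and S phase genes in each library, with the mean and SD of each group of 3 to the right of its points and each y axis starting at 0. Circles, squares and triangles are replicates 1, 2 and 3. Tk1, Gins2 and Uhrf1 are separated from PBS in all exposed libraries, Gins4 is level, and Rfc1 is lower in the short-term libraries.

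The 5 polymerase and primase genes had the smallest median differences of the 6 roles, 0.39 after the short-term dose and 0.36 after the long-term doses. After the long-term doses none of the 5 passed the limma test, with differences of 0.09 to 0.50, and after the short-term dose Prim1 and Pole rose. Pole, the catalytic subunit of the leading strand polymerase, was 0.66, 0.74 and 0.87 TPM with PBS, 1.32, 2.13 and 1.40 TPM short-term and 1.82, 1.58 and 1.08 TPM long-term. All exposed libraries lay above PBS, and Pole met the condition for testing only through them. The difference was 0.56 after the short-term dose (limma adjusted p = 0.0157) and 0.50 after the long-term doses (adjusted p = 0.0845). Without PBS replicate 1 the short-term adjusted p was 0.0581. Pola1, the catalytic subunit of the polymerase that extends primers, was 1.52, 1.47 and 1.07 TPM with PBS, 0.70, 2.26 and 1.21 TPM short-term and 2.5, 1.86 and 1.99 TPM long-term. Its long-term libraries all lay above PBS, while the short-term libraries lay on both sides of PBS, with replicate 1 the lowest of all 9. Neither difference passed (−0.02 ± 0.22 and 0.41 ± 0.22, SE). Prim1, the catalytic subunit of primase, rose by 0.72 after the short-term dose (limma adjusted p = 0.0315). That call was lost with no filter and without short-term replicate 2, PBS replicate 1 or PBS replicate 3. Pola2 and Pold1, subunits of the primer-extending and the lagging strand polymerase, differed from PBS by 0.25 and 0.39 short-term and by 0.09 and 0.22 long-term, below the threshold.

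The clamp loader, clamp and lagging strand genes split within their complexes. After the short-term dose 7 of the 9 rose and 1 fell, and after the long-term doses 3 rose (Rfc4, Rfc5 and Lig1). Rfc4, a small clamp loader subunit, was 3.37, 2.88 and 2.97 TPM with PBS, 8.58, 11.4 and 8.74 TPM short-term and 6.04, 5.16 and 4.78 TPM long-term. The groups were fully separated, with differences from PBS of 1.37 ± 0.16 (SE), adjusted p = 0.000264, and 0.63 ± 0.16 (SE), adjusted p = 0.0279, by limma. The long-term libraries were lower than the short-term libraries by limma (−0.74, adjusted p = 0.00527). Rfc5, another small subunit, was 7.21, 6.04 and 6.47 TPM with PBS, 10.9, 16.9 and 11.7 TPM short-term and 13.8, 11.5 and 9.85 TPM long-term. The exposed groups overlapped each other and lay above PBS, with differences of 0.88 (limma adjusted p = 0.00429) and 0.74 (adjusted p = 0.0311). Rfc3 and Rfc2 rose after the short-term dose by 0.73 and 0.45. Rfc2 was 36.7, 32.3 and 38.7 TPM with PBS, 51.6, 50.4 and 46.1 TPM short-term and 46.9, 49.7 and 45.9 TPM long-term, and its long-term difference of 0.40 lay at the threshold without passing it (limma adjusted p = 0.0501). Rfc1, the large subunit of the loader, went the other way, at 14.0, 12.1 and 13.7 TPM with PBS, 5.55, 11.6 and 7.55 TPM short-term and 13.2, 12.4 and 12.5 TPM long-term. All short-term libraries lay below the others. Rfc1 fell after the short-term dose (−0.68 ± 0.21 (SE), adjusted p = 0.0222, by limma) and differed from PBS by −0.06 after the long-term doses. The call was lost without PBS replicate 1, PBS replicate 3 or short-term replicate 3, and the difference was 0.00 after the length and GC correction described further on.

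Lig1, the ligase that seals lagging strand fragments, was 8.69, 7.50 and 8.80 TPM with PBS, 13.5, 20.4 and 13.7 TPM short-term and 17.5, 12.7 and 12.3 TPM long-term. Exposed libraries exceeded all PBS libraries, with differences of 0.84 (limma adjusted p = 0.00609) and 0.68 (adjusted p = 0.0482). The long-term call was the least stable of the 12 and was lost in 10 of 19 alternatives. Rpa2, a subunit of the protein that coats single-stranded DNA, was 9.59, 8.42 and 9.55 TPM with PBS, 14.2, 18.8 and 13.4 TPM short-term and 10.8, 8.73 and 9.56 TPM long-term. The short-term libraries all lay above PBS, by 0.68 (limma adjusted p = 0.00676). The long-term difference from PBS was 0.07 ± 0.16 (SE), and the long-term group was below the short-term group by limma (−0.61, adjusted p = 0.0118). Pcna, the sliding clamp, was the most abundant gene of the set, at 68.3, 73.3 and 67.3 TPM with PBS, 65.5, 124 and 93.0 TPM short-term and 90.8, 73.7 and 80.4 TPM long-term. The short-term libraries ranged from below PBS (replicate 1) to above every other library (replicate 2), and Pcna passed no test. Fen1, the flap nuclease, rose by 0.82 after the short-term dose (limma adjusted p = 0.00975). Other genes on the opposite strand cover 84.2% of its exonic bases, among them Tmem258, which was at 121 to 128 TPM with PBS, 233 to 250 TPM short-term and 133 to 152 TPM long-term. The part of that overlap in the Fen1 values was not tested, and the levels of Fen1 and Gins2 are uncertain for this reason. Exonic bases were shared with another gene in 13 of the 39 genes, and in the other 11 of these the share was 0.699% to 17.4%.

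In nucleotide synthesis Tk1 and Rrm2 rose after both exposures. Tk1, the cytosolic thymidine kinase of the salvage route, was 5.17, 5.12 and 4.82 TPM with PBS, 28.0, 24.6 and 21.5 TPM short-term and 23.6, 17.0 and 11.2 TPM long-term. Every exposed library was more than the whole PBS range above PBS, and the exposed groups overlapped. The difference was 2.08 ± 0.23 (SE), adjusted p = 0.000196, and 1.54 ± 0.23 (SE), adjusted p = 0.00168, by limma, and the ratios of mean TPM were 4.91 and 3.43. Rrm2, the regulated small subunit of ribonucleotide reductase, was 4.95, 4.34 and 4.84 TPM with PBS, 6.40, 13.5 and 7.99 TPM short-term and 16.4, 10.6 and 8.6 TPM long-term. All exposed libraries lay above PBS, with differences of 1.13 long-term (limma adjusted p = 0.0227) and 0.79 short-term (adjusted p = 0.0316). After the length and GC correction described further on the order turned, with 0.95 long-term and 1.04 short-term. The difference between the exposed groups did not pass the test (0.33, limma adjusted p = 0.32). The short-term call of Rrm2 was lost without any 1 PBS library and without short-term replicate 2 or short-term replicate 3. It was also lost with no filter and with the replicate number as a block. Rrm1, the large subunit, passed no test, at 10.7, 10.8 and 10.4 TPM with PBS, 8.09, 16.5 and 11.9 TPM short-term and 18.6, 14.2 and 13 TPM long-term. Rrm2 was 0.400 to 0.464 of Rrm1 in TPM in the PBS libraries, 0.672 to 0.820 in the short-term libraries and 0.663 to 0.878 in the long-term libraries. The transcript of Rrm1 is the longer (3997 against 2193 bases), and the short-term differences of Rrm2 and Rrm1 were 0.79 and 0.13 as deposited and 1.04 and 0.70 after the length and GC correction. Tyms, thymidylate synthase, rose after the short-term dose by 0.65 (limma adjusted p = 0.00624). Dut, which clears dUTP, had differences of 0.25 and 0.08 and passed neither test.

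Among the genes of S phase entry and methylation upkeep, Uhrf1 and Ccne1 rose after both exposures. Uhrf1, which guides the maintenance methyltransferase to newly copied DNA, was 2.05, 2.31 and 1.73 TPM with PBS, 8.94, 13.8 and 10.7 TPM short-term and 8.90, 6.22 and 5.90 TPM long-term. The short-term libraries were all above the long-term libraries, and those were all above PBS. The differences from PBS were 1.99 ± 0.20 (SE), adjusted p = 0.00012, and 1.39 ± 0.20 (SE), adjusted p = 0.00145, by limma, with ratios of mean TPM of 5.48 and 3.45, and the long-term group was lower than the short-term group (−0.60, adjusted p = 0.0298). Ccne1, a cyclin E that drives the entry into S phase with its kinase, was 1.20, 1.36 and 0.99 TPM with PBS, 3.35, 4.90 and 3.96 TPM short-term and 4.45, 3.52 and 3.08 TPM long-term. Exposed groups overlapped each other and not PBS, with differences of 1.21 (limma adjusted p = 0.000567) and 1.09 (adjusted p = 0.0021). The ratios of mean TPM were 3.44 and 3.11. Ccne2, the other cyclin E, was 0.84, 0.89 and 0.80 TPM with PBS, 0.25, 1.62 and 0.80 TPM short-term and 1.55, 1.39 and 1.10 TPM long-term. It passed no test, and its short-term libraries spread from the lowest to the highest of all 9. E2f1, an activating E2F factor, had means of 9.44 ± 0.0850 TPM with PBS, 13 ± 1.11 TPM short-term and 10.6 ± 0.68 TPM long-term (SD, n = 3). It rose after the short-term dose by 0.42 (limma adjusted p = 0.024) and did not pass the long-term test (0.15). Its short-term call was lost without any 1 of the 3 PBS libraries.

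In the RefSeq annotation of GRCm38.p6 Tk1 lies at chr11:117815519-117826087, Uhrf1 at chr17:56303337-56323486, Gins2 at chr8:120581266-120589075 and Ccne1 at chr7:38097984-38107490. Rfc1 lies at chr5:65261852-65338617.

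The test between the exposed groups compared 6 doses with 1. The groups also differed in total dose. With the time to collection not given, the number, amount and timing of doses cannot be told apart. Of the 38 genes 8 were lower after the long-term doses (Mcm3, Mcm5, Mcm7, Gins1, Rfc3, Rfc4, Rpa2 and Uhrf1) and Rfc1 was higher, against 7.08% of all tested genes lower and 43.4% higher. The median difference was −0.23, beside a median of 0.41 over all tested genes. In 12 of the 38 genes every long-term library lay below every short-term library, which held for 9.94% of all tested genes. The calls of Mcm5, Gins1 and Rfc4 held in all alternatives in which they were tested, and the other 6 were lost or reversed in 1 to 12 of them. Without long-term replicate 2 or long-term replicate 3 the number lower was 3 and 4, while over all tested genes it went from 991 to 650 and 615. In 31 of the 38 genes the difference from PBS was positive and larger after the single dose than after the repeated doses, and 8 of these 31 passed the test between the exposed groups.

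The summed level of these genes differed among the libraries of each exposed group. It was 356 to 366 TPM in the PBS libraries, 514, 717 and 556 TPM in short-term replicates 1 to 3, and 562, 465 and 441 TPM in long-term replicates 1 to 3. Short-term replicate 2 was the highest of its group in 36 of the 39 genes, and long-term replicate 1 in 37 of the 39. The same count over all genes was not made, so these counts cannot be read as particular to the set. The median difference from the PBS mean was 0.56, 1.06 and 0.66 in the short-term libraries and 0.73, 0.36 and 0.29 in the long-term libraries, and long-term replicate 1 lay within the short-term range. Over all tested genes this median was −0.60, −0.13 and −0.29 short-term and 0.09, 0.0005 and −0.01 long-term, highest in the same libraries. After the length and GC correction described further on, the set had medians of 1.14, 1.21 and 0.88 short-term and 0.56, 0.31 and 0.21 long-term. Other features of the short-term libraries moved with the set. Genes reaching 1 TPM numbered 12560, 13414 and 13175 in them, while the other 6 libraries had 13534 to 13930. The median difference from the PBS mean of genes with transcripts of at least 4904 bases, minus that of genes with transcripts of at most 1662 bases, was −1.43, −0.65 and −0.87 in short-term replicates 1 to 3. In the long-term libraries it was −0.20 to −0.13, and in PBS −0.05 to 0.04. Short-term replicate 1, with the lowest of these values, was also the library in which Mcm4, Pcna, Pola1, Rrm1, Ccne2 and Gins4 lay below PBS. Of these, Gins4 and Pcna have short transcripts (1349 and 1518 bases). Rfc1 lay below PBS in all short-term libraries.

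A smooth trend over transcript length and GC content was then subtracted from each library. After this correction 36 of the 38 genes were higher after the short-term dose and none lower, against 23.7% and 26% of the 13792 genes with a known length, and the median difference was 1.09, beside a median of −0.02 over all corrected genes. Median-ratio scaling and quantile normalization of the deposited values gave 34 and 35 genes higher, beside 3421 and 3477 of all 13991 tested genes. Gins4 (−0.14) and Rfc1 (0.00) were the genes that did not pass after the length and GC correction. The transcript of Rfc1 has 4751 bases. Genes that passed no test as deposited and were higher after the correction included Mcm4 (0.61, limma adjusted p = 0.000242), Rrm1 (0.70) and Pola1 (0.74). For the long-term doses the corrected counts were 18 higher and 0 lower, with a median of 0.36, against 13.1% and 12.8% of all genes. Between the exposed groups 34 genes were lower long-term and 0 higher, with a median of −0.60, against 22.2% and 19.2%. Among the 13 genes with the shortest transcripts (1087 to 2152 bases) 9 rose after the short-term dose as deposited, with a median of 0.73, which the correction moved to 0.77. Among the 13 longest (3381 to 7163 bases) 8 rose and 1 fell, and the correction moved the median from 0.56 to 1.37.

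**Figure D4:**
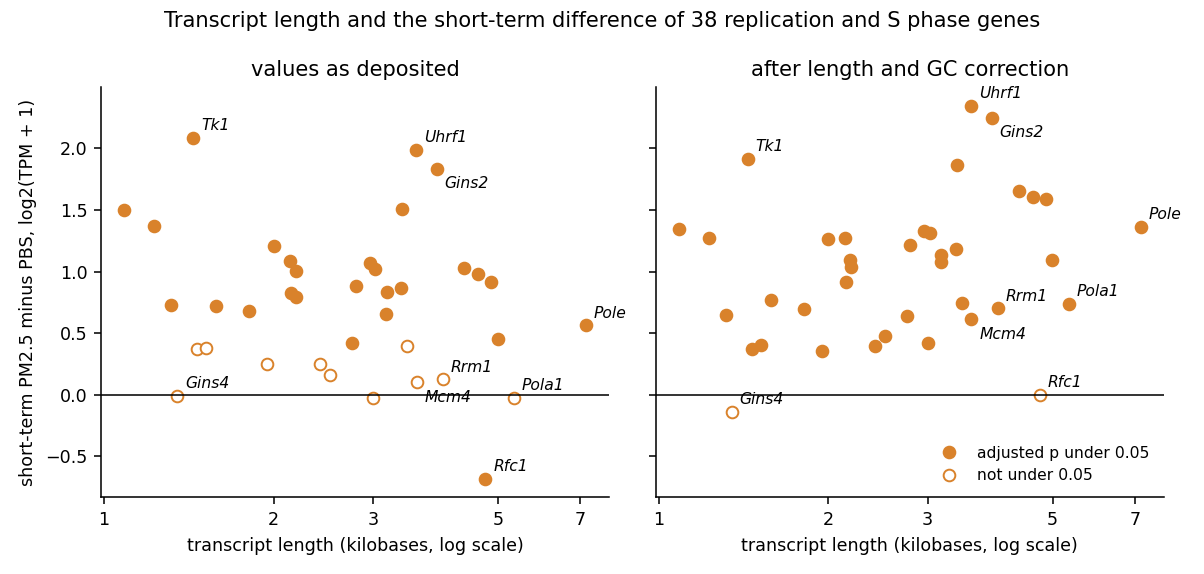
Short-term difference from PBS of the 38 tested genes on the log2(TPM + 1) scale against transcript length on a log axis, as deposited (left) and after the length and GC correction (right). Filled points have an adjusted p under 0.05. Rfc1 moves from −0.68 to 0.00, and Tk1, a short transcript, stays high. Mcm4, Rrm1 and Pola1 move from 0.10, 0.13 and −0.02 to 0.61, 0.70 and 0.74.

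Other genes of the cell cycle were counted by role, to be read against the 9.51% of all tested genes higher and 1.72% lower after the long-term doses and the 11.7% higher and 40.3% lower after the short-term dose. Of 34 tested further replication genes, 4 rose and 0 fell after the long-term doses, and 9 rose and 4 fell after the short-term dose. The largest long-term differences were those of Top2a, a topoisomerase that untangles finished strands (1.45 long-term, 0.52 short-term), Dtl, which marks Cdt1 for removal (0.98 and 0.90), and Dna2, a nuclease of lagging strand flaps (0.90 and −0.07). Of 16 nucleotide supply genes 2 rose after the long-term doses, and 6 rose and 1 fell after the short-term dose. Mthfd2 and Shmt1, enzymes of folate metabolism, rose after both (0.91 and 0.85 long-term, 1.31 and 0.59 short-term), and Ctps, CTP synthase, passed only the short-term test (0.40 long-term, 1.17 short-term). Of 32 further G1/S regulators 4 rose after the long-term doses, and 7 rose and 9 fell after the short-term dose. E2f7 and E2f8, repressors of E2F targets, rose long-term (1.21 and 1.13) and differed by −0.09 and 0.32 short-term, below the threshold, while Cks1b, a kinase subunit, rose in both (1.06 and 1.39). Of 14 tested genes of replication-coupled chromatin 4 rose long-term, and 5 rose and 1 fell short-term. They were led by Zranb3, a fork remodeller (1.31 long-term, 0.15 short-term), and the histone chaperone genes Asf1b (1.02 and 0.94) and Chaf1a (0.97 and 0.70). The long-term counts of the further replication genes and of the G1/S regulators, 4 of 34 and 4 of 32, lay near the share of all genes.

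Mitosis genes were higher after the repeated doses than after the single dose. All 19 tested mitosis genes (of 20, without Bub1) rose after the long-term doses, with a median difference of 1.45, and 5 of the 19 rose after the short-term dose (Cdk1, Plk1, Aurkb, Cdc20 and Birc5), with a median of 0.26. All 19 were higher after the long-term than after the short-term exposure by limma, with a median of 1.01, whereas 8 replication genes were lower and 1 higher in that test. Of all tested genes 43.4% were higher and 7.08% lower there, with a median of 0.41. Ccnb1, the cyclin of mitotic entry, was 0.90, 0.94 and 1.22 TPM with PBS, 0.57, 2.17 and 1.34 TPM short-term and 8.18, 5.92 and 5.08 TPM long-term. Its short-term libraries spread around PBS and its long-term libraries lay above all others (1.85, limma adjusted p = 0.000976). Ube2c, an enzyme of cyclin destruction, and Ccnb2, another cyclin B, rose long-term by 1.70 and 1.62. Their short-term differences were 0.54 and 0.08. In every short-term library the median difference of the replication genes exceeded that of the mitosis genes (0.56 against 0.04, 1.06 against 0.53, 0.66 against 0.29), and in every long-term library it was the smaller (0.73 against 1.84, 0.36 against 1.21, 0.29 against 1.10). That order held in each exposed library after the length and GC correction. With it the short-term count of mitosis genes was 16 of 19, against 23.7% of all genes. The count higher long-term than short-term was 10, against 19.2%. Without PBS replicate 1 or PBS replicate 3 the short-term count was 3.

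**Figure D5:**
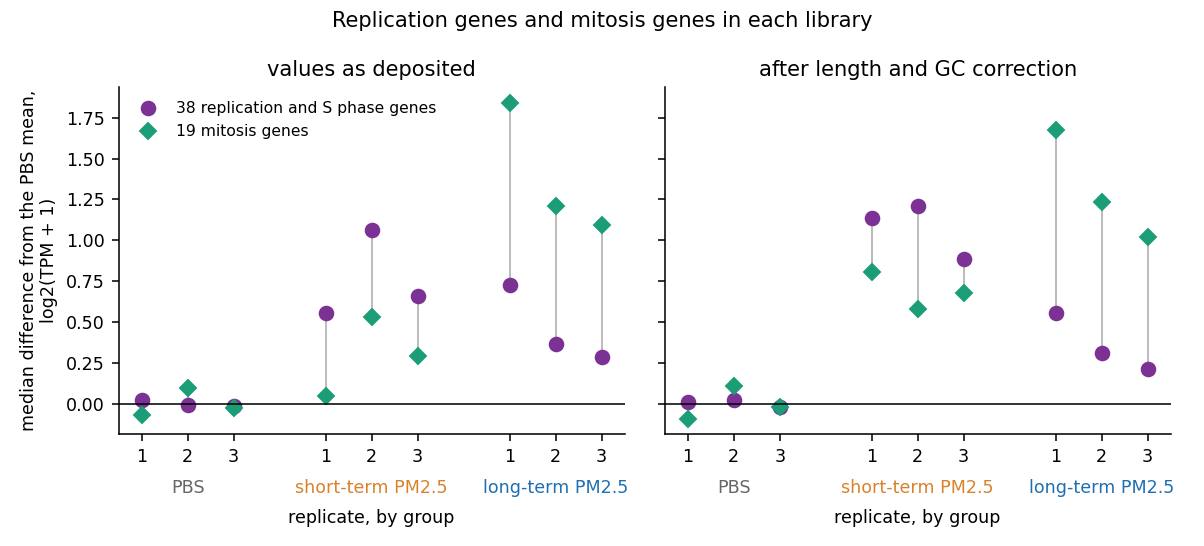
Median difference from the PBS mean on the log2(TPM + 1) scale of the 38 replication and S phase genes (circles) and the 19 mitosis genes (diamonds) in each library, as deposited (left) and after the length and GC correction (right). Circles lie above diamonds in all 3 short-term libraries and below them in all 3 long-term libraries in both panels.

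Markers of lung cell types were summed and counted, against the same shares of all tested genes (9.51% higher and 1.72% lower long-term, 11.7% higher and 40.3% lower short-term). The summed level of 12 alveolar macrophage markers was 1123 to 1366 TPM with PBS, 709 to 1071 TPM short-term and 1926 to 2167 TPM long-term, with 7 of the 12 higher long-term and 1 higher and 4 lower short-term, the latter near the share of all genes. The sum of 12 markers of monocytes and interstitial macrophages was 450 to 534 TPM with PBS, 710 to 842 TPM short-term and 731 to 1043 TPM long-term, with 6 and 5 of the 12 higher. Neutrophil markers summed to 388 to 641 TPM with PBS, 1050 to 1571 TPM short-term and 493 to 833 TPM long-term, with 8 of the 11 tested higher short-term and 1 long-term. Of 10 endothelial markers 5 were lower short-term, near the share of all genes, and 6 long-term, and T and NK cell markers summed to 107 to 172, 122 to 147 and 117 to 160 TPM. Red cell precursor markers summed to 167 to 205, 190 to 250 and 116 to 146 TPM. The labelled tissue matched its markers, with sums of 35170 to 55403 TPM for type 2 alveolar cells and 108857 to 185594 TPM for airway cells. The part of these cell types in the levels of the replication genes was not tested.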

How the data were processed

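mRNA was isolated with oligo(dT) and the libraries were treated with duplex-specific nuclease, per the labels' protocols. The values are TPM, made by the authors and deposited as 1 table of 18875 genes by 9 libraries. HISAT2, Bowtie2, RSEM and DESeq2 are named in the submitters' processing notes without role or version, with build GRCm38.p6 named for 8 of the 9 samples. The sources used here do not say whether reads were counted by strand. TPM keeps no read depth, so no counting interval can be given, and 3 libraries a group limit the precision.

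A gene was tested if 3 or more libraries had it at 1 TPM or above (13991 tested, 4884 not). On log2(TPM + 1) of the deposited values, limma 3.58.1 in R 4.3.3 fitted the 3 groups together with an intensity trend and 6 residual degrees of freedom. Benjamini-Hochberg adjustment ran over all tested genes, with calls at 0.05. Simulated data held 200 changed genes among 13991. Of changes of 1 on the log2 scale, 84% were recovered for long-term against PBS. For short-term against PBS it was 85%, and for long-term against short-term 81%. In the same order 7.11%, 4.17% and 6.22% of calls were false. The measured libraries gave far more calls, with 1632 genes higher and 5636 lower for short-term against PBS. For long-term against short-term 6070 were higher and 991 lower. The share of changes recovered and of calls that are false with that many changed genes was not tested.

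All 39 genes were named by role. Library values were given for the 2 largest long-term differences of each role, the 2 largest short-term differences of the set and the 4 smallest long-term differences, and the 3 largest long-term differences of each list of related genes were named. The library values of Mcm4, Mcm5, Mcm6, Gins1, Rfc2, Rfc4, Pcna, Rrm1, Ccne2 and Orc1, the levels of Gse1 and Tmem258, the promoter search and the check for overlapping genes were chosen after their values were seen, and the members and lists were chosen with earlier results of these data known. Positions and promoters are from RefSeq (GRCm38.p6), and transcript length, GC content and exon overlap from GENCODE vM21. No promoter was matched for Gins1, Gins2, Gins4, Pole, Rfc2, Mcm4 and Ccne2. Alternatives were another pseudocount (0.1), no filter, a mean of at least 5 TPM, median-ratio scaling, quantile normalization, a length and GC correction (spline with 5 degrees of freedom), the 2 compared groups alone, a replicate block, no intensity trend, array weights and each library left out. Figures were drawn with matplotlib 3.10.9 in Python 3.11.15.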

Additional observations from a re-analysis of the deposited data

How the results depend on the processing

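Of the calls among the 38 replication genes, 4 of 12 for long-term against PBS, 21 of 27 for short-term against PBS and 3 of 9 for long-term against short-term held in every alternative in which the gene was tested. The number higher after the long-term doses, 12, was 22 with the 2 compared groups alone, 25 with array weights, and 4 to 19 with 1 library left out. The same number over all tested genes, 1330, was 2500, 3027 and 794 to 2152. The number higher after the short-term dose, 26, ranged from 19 with a mean of at least 5 TPM (28 genes tested) to 36 with the length and GC correction, and the number lower, 1, was 0 with quantile normalization, with that correction and with the 2 groups alone, and 0 to 1 with 1 library left out. The short-term median of the 38 genes, 0.76, was 1.08 with median-ratio scaling, 1.17 with quantile normalization and 1.09 with the correction. Under the same settings the number of all tested genes higher after the short-term dose, 1632, was 3421, 3477 and 3275. Between the exposed groups the number lower, 8, was 30 with median-ratio scaling, 31 with quantile normalization, 34 with the correction, 4 with the 2 groups alone, 23 with array weights and 3 to 12 with 1 library left out, and the median of −0.23 was −0.54, −0.77 and −0.60 under the first 3 of these. The number higher, 1, was 0 under median-ratio scaling, quantile normalization, the correction, the 2 groups alone and the replicate block, 5 with array weights and 0 to 5 with 1 library left out. Over all tested genes the number lower between the exposed groups, 991, was 2756 with median-ratio scaling and 2996 with quantile normalization. It was 3061 with the correction and 2118 with array weights. Rfc1 reversed under the correction, to 0.0016 short-term and −0.10 long-term against short-term. The mitosis alternatives were added after seeing the data. Of 19 mitosis genes higher long-term, 7 were counted with a mean of at least 5 TPM, where fewer genes were tested. The 5 higher short-term were 3 with that filter, 9 with median-ratio scaling, 14 with quantile normalization, 16 with the correction, 3 with the 2 groups alone, 3 with the replicate block, 11 with array weights and 3 to 6 with 1 library left out. The 19 higher long-term than short-term were 7 with that filter, 9 with quantile normalization and 10 with the correction. The causes were not tested. Whether replicate numbers pair the samples was not settled. Samples with the same number had correlations of their deviations of −0.29 to 0.26 over 9 pairs, and others −0.27 to 0.34 over 18. These overlapping ranges cannot show whether samples were paired. With the replicate block 8 genes were higher long-term, 24 higher short-term and 6 lower long-term than short-term.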
